A study of Arabidopsis thaliana with 36 samples.

Results

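The 42 genes described here are the plastid-encoded genes for the photosynthetic apparatus, taken as a list of gene symbols and matched to the probe sets of the array that carry 1 gene in the gene table. All 42 listed genes were found, with 1 probe set each, among 22746 probe sets that are not controls. They encode 5 subunits of photosystem I, 13 subunits of photosystem II and the assembly factor psbN, 6 subunits of the cytochrome b6f complex, 6 of the ATP synthase, 10 of the NDH complex and the large subunit of Rubisco. RNA came from all green leaf tissue of 14-day-old Arabidopsis thaliana seedlings of the Columbia ecotype, grown on GamborgB5 medium with sucrose, and was hybridised to 36 one-colour Affymetrix ATH1 arrays. Seedlings were sprayed during the light period with deionised water, 50 µM antimycin A or 20 mM hydrogen peroxide, and collected after 3 h. Of the 4 genotypes, Col:LUC is the label of wild type, and the mutants were rao2 (an EMS line, known as an allele of ANAC017), anac017-1 (a T-DNA line described as a knock-out of ANAC017) and anac017-2 (described as a gain of function mutant of ANAC017), with 3 arrays for each of the 12 combinations. Only wild type carries the Col:LUC label, so a difference between a mutant and wild type cannot be told apart from one of genetic background. The labels do not say if the mutants have that reporter or were backcrossed.

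The plastid genome is a small relic of a cyanobacterial genome that keeps the core subunits of the photosynthetic complexes, while most other subunits are made from nuclear genes and imported. Its genes are read largely as operons by a bacterial-type and a phage-type RNA polymerase, and the amount of each mature transcript depends strongly on nuclear-encoded proteins that cut, edit, splice and protect the RNA. Antimycin A inhibits complex III of the mitochondrial respiratory chain, and it also inhibits a branch of cyclic electron flow around photosystem I in chloroplasts. ANAC017 is a membrane-bound NAC transcription factor of mitochondrial retrograde signalling, the path by which disturbed mitochondria alter nuclear transcription. Plastid RNAs lack stable poly(A) tails, and short tails mark them for decay in plastids. Labelling followed the standard Affymetrix protocol, which primes from poly(A), so the intensity of a plastid gene need not follow its whole RNA pool. In leaf tissue fewer chloroplast-rich cells and less RNA per cell cannot be told apart.

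All 42 members lay above the lower quartile of every array. The brightest, atpB and atpE (subunits of the ATP synthase), reached 15.40 and 15.50 in log2 intensity, close to the highest values of the arrays (15.56 to 15.74), where little room was left to see a rise. Rubisco activase (RCA), the measured member of the 6 green leaf markers, lay between 14.47 and 14.72 on all 36 arrays. Of 15 root markers 2 were measured, of which EXPA7 was above the lower quartile on 0 arrays and EXPA18 on 25. The mean log2 intensity of both lay between 2.13 and 2.70 on the arrays of 11 groups and ran from 2.33 to 3.47 in rao2 water. The highest values of both genes, 4.46 for EXPA18 and 2.49 for EXPA7, came from the same rao2 water array. EXPA18 was called lower in rao2 under both sprays (-0.90 ± 0.26 and -0.79 ± 0.26, limma, adjusted p = 0.005131 and 0.046), and EXPA7 under antimycin A (-0.15 ± 0.06, adjusted p = 0.03125). These comparisons share that 1 high water array, and no fit of these genes without it is given here. The part of the root markers in the rao2 results was not tested.

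The 3 arrays of anac017-2 under hydrogen peroxide stood apart in these genes. The mean log2 intensity of the 42 members was 11.31 on replicate 1, 10.71 on replicate 2 and 11.55 on replicate 3. All 42 members lay below their group mean on replicate 2 (by 0.48 on average) and all 42 above it on replicate 3 (by 0.36). All 22746 probe sets together deviated by 0.03 and -0.01. Normalization across arrays keeps that mean nearly constant, so it could hardly show a shift of a whole array. The 0.03 of replicate 2 was still the largest such deviation of any array, and the -0.018 of replicate 1 the next in size. Whether these arrays differed beyond the members was not tested. The SD of the members' mean was 0.435 in this group and between 0.0246 and 0.175 in the 11 others. Since 1 residual spread per gene was estimated over all groups, counts are given below with and without this group.

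Changes of the plastid-encoded genes under antimycin A were small, with a median absolute log2 change of 0.18 in wild type against 0.28 over all probe sets. In wild type 8 of 42 members (19%) were called higher and 0 lower (limma, adjusted p under 0.05 over all probe sets), against a background of 44% of all probe sets called in either direction, 17.2% higher and 26.7% lower. The counts were 8 higher and 1 lower in rao2 (21.4% of members, background 42.2%, with 25.8% lower) and 2 higher and 1 lower in anac017-1 (7.14%, background 45.3%, with 27.7% lower). None of the 42 members was called in anac017-2 by limma, where 15.3% of all probe sets were, and 1 member had an unadjusted p under 0.05. In this fit the share called higher was thus near the background in wild type and rao2, where 16.4% of all probe sets were called higher. It was below the background in anac017-1, where 17.7% were. With the hydrogen peroxide group of anac017-2 left out of the fit, 10 members were called in wild type, 12 in rao2, 7 in anac017-1 and 1 in anac017-2 (backgrounds 44.6%, 42.7%, 46.1% and 16.5%). Called higher there were 21.4%, 26.2%, 14.3% and 2.38% of members, against 17.5%, 16.6%, 18.1% and 7.75% of all probe sets. Renewed quantile normalization gave 26.2%, 23.8% and 11.9% of members higher in wild type, rao2 and anac017-1, against 16.7%, 16.2% and 17.8%. The share called higher thus lay above the background in rao2 in both fits, and in wild type after quantile normalization. Array weights gave 18 in wild type, 8 in rao2, 7 in anac017-1 and 3 in anac017-2 (backgrounds 49.9%, 40.7%, 47.3% and 28.3%). The 18 in wild type were all higher, 42.9% of members against 19.8% of all probe sets called higher with array weights, so there the share called higher lay above the background. Without wild type antimycin A replicate 2 the wild type count was 5, without any 1 of the rao2 antimycin A arrays the rao2 count was 5, and without anac017-1 antimycin A replicate 2 the anac017-1 count was 6. For the fits with 1 array left out, no share of all probe sets is given here as a background.

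**Figure D1:**
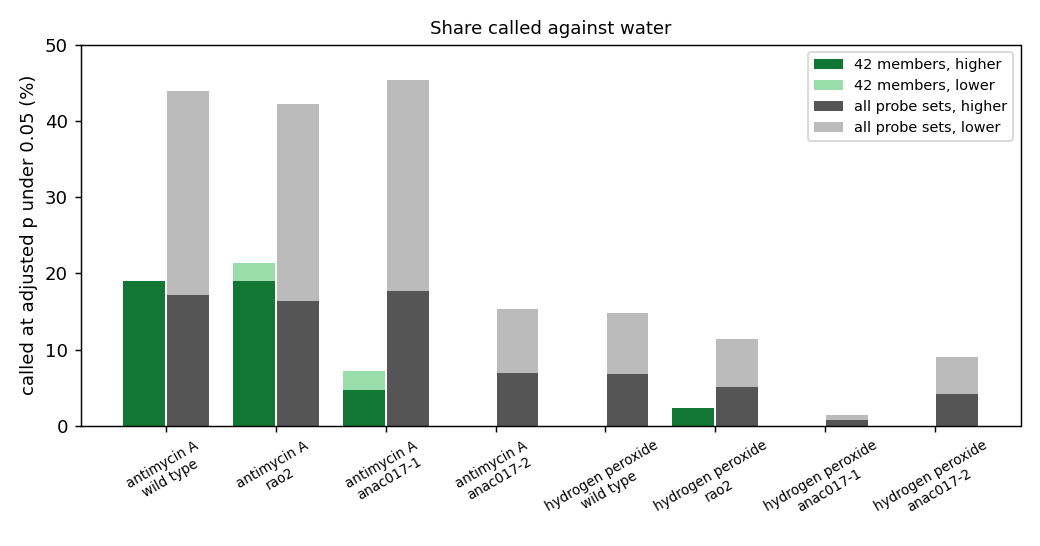
Share of the 42 plastid-encoded genes (green) and of all 22746 probe sets (grey) called at an adjusted p under 0.05 against water of the same genotype, in percent; dark and light parts are higher and lower. Members called lower are seen in rao2 and anac017-1 under antimycin A, and grey bars exceed green bars in all 8 comparisons.

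No member changed by as much as 1 in log2 (2-fold) under antimycin A in any genotype, whereas 18.1% of all probe sets did so in wild type, 17.1% in rao2 and 20% in anac017-1. The median absolute log2 change of the members was 0.18 in wild type, 0.19 in rao2 and 0.16 in anac017-1, against 0.28, 0.28 and 0.31 for all probe sets. The members were measured with no greater precision than others, since their median standard error was 0.16 against 0.12. The 95% interval of the change lay within 1 of zero for 36, 34 and 35 of 42 members in these 3 genotypes, and within 0.5 for 23, 22 and 22. Most changes were positive, at 32, 34 and 36 of 42, with medians of 0.16, 0.15 and 0.14 where the medians of all probe sets were -0.02, -0.02 and -0.02. The 3 comparisons have arrays of their own and no shared control. In them all antimycin A arrays lay above all water arrays for 15, 17 and 13 members, and below for 1, 2 and 2. Of all probe sets 19.4%, 18.5% and 20.6% lay wholly above, and 31.2%, 29.4% and 31.7% wholly below. In anac017-2 the members numbered 5 above and 3 below, with 17% and 19.2% of all probe sets.

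**Figure D2:**
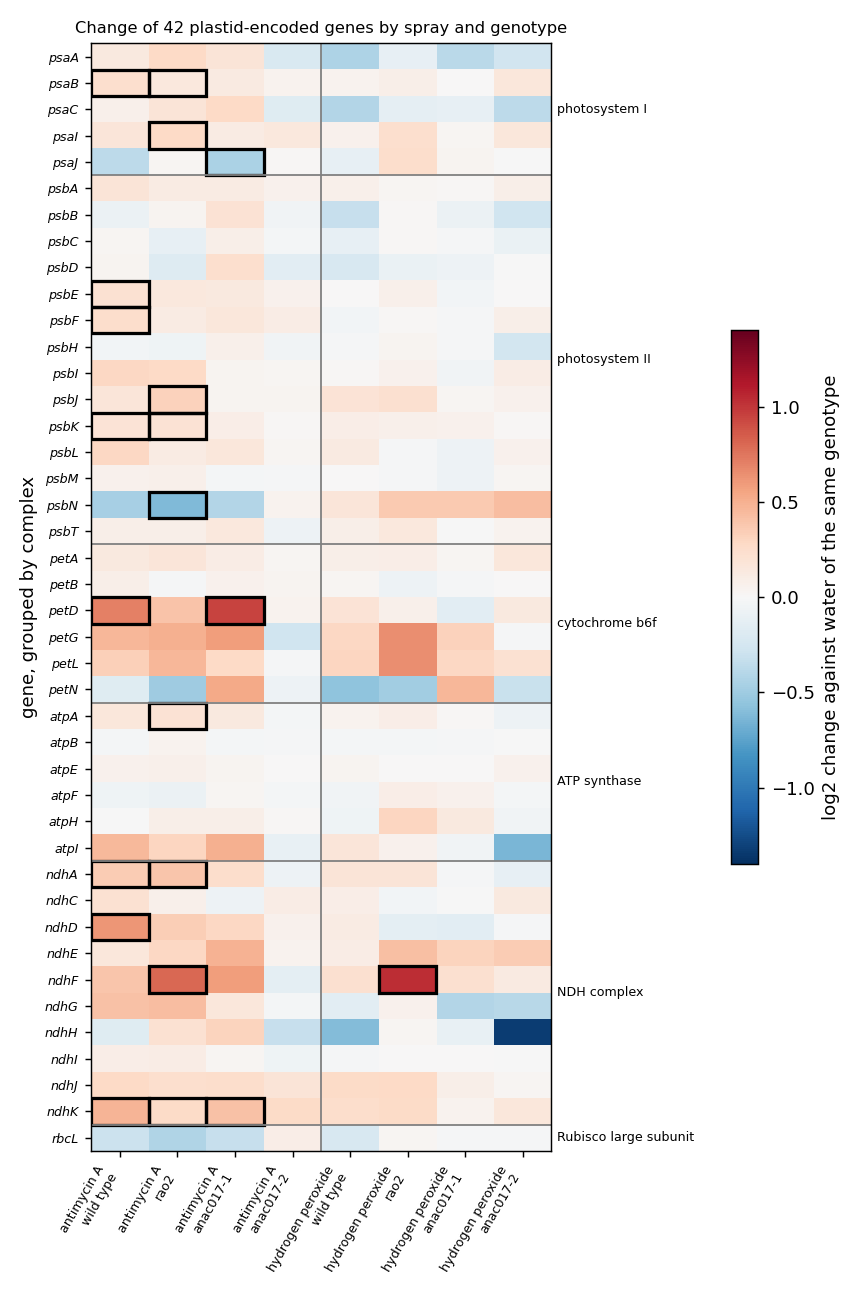
Log2 change of each of the 42 genes (rows, by complex) against water of the same genotype in 8 comparisons (columns); red is higher, blue is lower, and black frames mark the 21 changes called at an adjusted p under 0.05. Frames lie mainly in the first 3 columns, antimycin A in wild type, rao2 and anac017-1, and the antimycin A column of anac017-2 has none.

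The levels of several array measures moved with antimycin A beside these small positive shifts. The 9 probe sets for bacterial RNAs spiked in as hybridisation controls were higher by 0.14, 0.13, 0.13 and 0.04 in log2 in wild type, rao2, anac017-1 and anac017-2. Antimycin A and water arrays were apart for these controls in wild type only, and overlapped in rao2, anac017-1 and anac017-2. The mean of the 42 members differed by 0.15, 0.14, 0.16 and -0.01, with antimycin A and water arrays apart only in rao2. Between arrays of a group the SD of that mean was 0.158, pooled over all groups. This includes anac017-2 under hydrogen peroxide, with an SD of 0.435, while the SD of the other groups lay between 0.0246 and 0.175. The control probe set for 25S ribosomal RNA was higher by 1.77, 1.88, 1.83 and 0.86 with no overlap between arrays. The ratio of 3' to 5' signal of the actin, GAPDH and ubiquitin controls differed by -0.03, 0.16, 0.20 and 0.01 in log2. Its arrays overlapped in all 4 genotypes. With each array centred on the hybridisation controls, 8 of the 21 member changes called in any spray comparison kept their call, 13 lost it and 0 reversed. Calls under that centring were 3 higher and 2 lower in wild type, 1 higher and 2 lower in rao2 and 1 higher and 2 lower in anac017-1. Of all probe sets, 13.3%, 12.5% and 14% were called higher and 32.5%, 30.4% and 31.5% lower under the same centring. The part of these measures in the members' shift was not tested beyond this recentring.

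**Figure D3:**
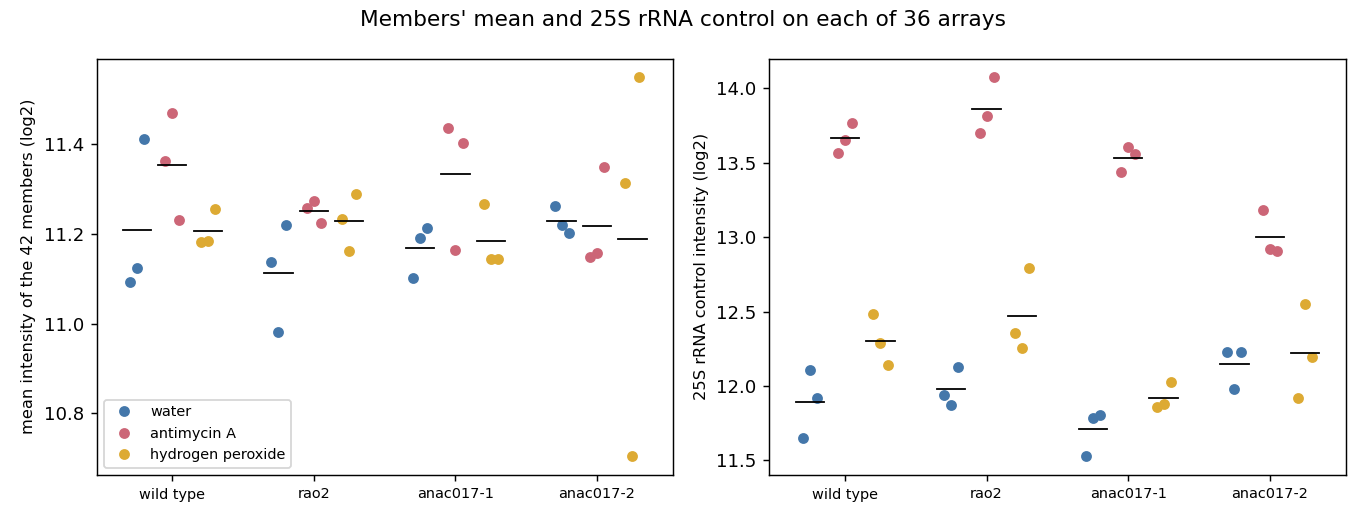
Mean log2 intensity of the 42 members (left) and log2 intensity of the 25S rRNA control (right) on each of 36 arrays, by genotype and spray; points are arrays and bars are means of 3. The members' means overlap between sprays in most genotypes, replicate 2 of anac017-2 under hydrogen peroxide lies lowest at 10.71, and the rRNA control is highest under antimycin A in every genotype.

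The NDH complex, which carries electrons from ferredoxin to plastoquinone in cyclic electron flow, had mostly positive changes under antimycin A in 3 genotypes. Of its 10 measured plastid genes 9 were positive in wild type, 10 in rao2 and 9 in anac017-1, with medians of 0.32, 0.28 and 0.27, and 5 were positive in anac017-2 with a median of 0.01. Called higher were 3 of these 10 genes in wild type, 3 in rao2 and 1 in anac017-1. Of all probe sets 17.2%, 16.4% and 17.7% were called higher there. Counts this small are not read as a difference from those shares.

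ndhK, a subunit of the arm that faces the stroma, was called in all 3 genotypes. Its log2 intensities in wild type were 12.23, 12.16 and 12.35 on water arrays and 12.51, 12.95 and 12.72 on antimycin A arrays. In anac017-1 they were 12.41, 12.34 and 12.44 against 12.87, 12.72 and 12.83. The antimycin A arrays lay above all water arrays in each, and ndhK rose by 0.48 ± 0.10 in wild type (1.39-fold, ± being the standard error in limma with n = 3 per group, adjusted p = 0.0004383) and by 0.41 ± 0.10 in anac017-1 (adjusted p = 0.001997). The rise in rao2, from 12.15, 12.25 and 12.25 to 12.51, 12.51 and 12.43, was 0.27 ± 0.10 (adjusted p = 0.04289). That call was lost when any 1 of the 6 rao2 arrays was left out. In anac017-2 the arrays were also apart (12.29, 12.22 and 12.32 against 12.61, 12.46 and 12.57), and the change of 0.27 was not called (adjusted p = 0.086) until the hydrogen peroxide group of that line was left out of the fit (adjusted p = 0.02443).

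ndhD, a membrane-arm subunit whose start codon is made by RNA editing, had 10.97, 11.06 and 11.41 on wild type water arrays and 11.62, 11.96 and 11.70 under antimycin A. All antimycin A values were above all water values, and the rise of 0.61 ± 0.17 (1.53-fold, adjusted p = 0.004251) kept its call without any single array. In rao2 and anac017-1 the arrays did not overlap either, with uncalled changes of 0.34 and 0.29. ndhA, another membrane-arm subunit, rose by 0.36 ± 0.13 in wild type (adjusted p = 0.03) and by 0.39 ± 0.13 in rao2 (adjusted p = 0.019), with no overlap in either. It was lost in wild type without any 1 of 4 of the 6 arrays (antimycin A replicates 2 and 3, water replicates 1 and 2), and its change ran from 0.27 to 0.46 over the 6 omissions.

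ndhF, the membrane-arm subunit at the end of the proton-pumping part, was among the dimmer members. Its log2 intensities in rao2 were 4.00, 3.35 and 4.28 in water, 4.979, 4.9995 and 4.06 under antimycin A, and 4.86, 4.91 and 4.95 under hydrogen peroxide. Water arrays of the other 3 genotypes lay between 4.80 and 5.54, so all 3 rao2 water arrays were lower than these. The changes called in rao2, 0.80 ± 0.28 for antimycin A (adjusted p = 0.02324, arrays overlapping) and 1.03 ± 0.28 for hydrogen peroxide (2.04-fold, adjusted p = 0.0173, arrays apart), share these low water arrays. Each was lost without rao2 water replicate 2, at 0.54 and 0.77, and without 2 of the 3 sprayed arrays. In water ndhF differed between rao2 and wild type by -0.98 ± 0.28, with an adjusted p of 0.32.

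The remaining NDH genes were not called. ndhJ changed by 0.28, 0.24 and 0.25 in wild type, rao2 and anac017-1, and was called in all 3 once the hydrogen peroxide group of anac017-2 was left out of the fit (adjusted p = 0.01193, 0.03375 and 0.02556). ndhE and ndhG ranged from 0.15 to 0.48 and ndhC from -0.07 to 0.22. The stroma-arm gene ndhH gave -0.17, 0.22 and 0.32. ndhI, near the top of the scale at about 14.9, stayed within 0.11.

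In the cytochrome b6f complex, which passes electrons from plastoquinol to plastocyanin, petD (subunit IV) had the largest called rise of the 42 genes under antimycin A. It was among the dimmer members, between 4.38 and 6.07 over all arrays and at a median percentile of 41.8 on the array. Its log2 intensities were 4.93, 4.59 and 4.95 in wild type water against 5.78, 5.67 and 5.14 under antimycin A, and 4.93, 4.95 and 5.20 against 6.07, 6.05 and 5.79 in anac017-1. The arrays did not overlap in either genotype. petD rose by 0.70 ± 0.18 in wild type (1.63-fold, adjusted p = 0.002409) and by 0.94 ± 0.18 in anac017-1 (1.92-fold, adjusted p = 0.0001041). Both calls held without any single array and under all 7 planned refits of the whole data, array weights and centring on the hybridisation controls included. In rao2 the values 4.38, 4.94 and 5.24 in water overlapped 5.13, 5.25 and 5.38 (0.40 ± 0.18, adjusted p = 0.081), and in anac017-2 the change was 0.04 ± 0.18.

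petB (cytochrome b6), which lies just before petD in the same operon, changed by 0.08, -0.02 and 0.06 in wild type, rao2 and anac017-1, at an intensity near 14.2. petA, which encodes cytochrome f, changed by 0.14, 0.16 and 0.10. The small subunits petG and petL had positive values of 0.28 to 0.58 that were not called, with standard errors of 0.43 and 0.29. petN gave -0.17, -0.50 and 0.53 with a standard error of 0.46.

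Photosystem I transfers electrons to ferredoxin, and its core is formed by psaA and psaB. psaB had 14.27, 14.31 and 14.46 in wild type water and 14.50, 14.66 and 14.60 under antimycin A, and 14.40, 14.45 and 14.45 against 14.58, 14.55 and 14.63 in rao2. All antimycin A arrays lay above the water arrays, by little. psaB rose by 0.24 ± 0.05 in wild type (1.18-fold, adjusted p = 0.0004297) and by 0.15 ± 0.05 in rao2 (1.11-fold, adjusted p = 0.01885). The intensity of psaB lay near the top of the scale, and centring on the hybridisation controls left 0.10 and 0.02, neither called. psaA, cotranscribed with psaB, changed by 0.14, 0.28 and 0.18 in the 3 genotypes and was not called.

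psaI, a small subunit, rose by 0.28 ± 0.08 in rao2 (12.68, 12.60 and 12.81 against 12.98, 13.01 and 12.95, adjusted p = 0.006331). psaC, the iron-sulfur subunit, changed by 0.07, 0.18 and 0.28. psaJ, a small hydrophobic subunit, was one of the few members to fall. In anac017-1 its values were 11.78, 11.89 and 12.01 in water and 11.57, 11.04 and 11.72 under antimycin A, with no overlap, and psaJ fell by 0.44 ± 0.16 (adjusted p = 0.02643). Without antimycin A replicate 2 it was -0.24 and not called, nor was it called without water replicate 2 or 3. In wild type the change was -0.36 ± 0.16 (adjusted p = 0.073, values overlapping), and in rao2 it was 0.02.

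Of the 14 genes counted with photosystem II, the water-splitting complex, 3 were called higher in wild type: psbE and psbF, which encode the 2 subunits of cytochrome b559, and psbK, a small subunit. With 17.2% of all probe sets called higher in that comparison, 3 of 14 lay near the background. psbE had 11.978, 11.879 and 11.997 in water and 12.12, 12.22 and 12.15 under antimycin A. psbF had 13.37, 13.19 and 13.37 against 13.42, 13.62 and 13.62. The arrays did not overlap for either, and the rises were 0.21 ± 0.07 for psbE (adjusted p = 0.014) and 0.24 ± 0.06 for psbF (adjusted p = 0.0029). psbK rose by 0.19 ± 0.06 in wild type (adjusted p = 0.015) and by 0.20 ± 0.06 in rao2 (adjusted p = 0.01). psbJ, a small subunit read with psbE and psbF, rose by 0.33 ± 0.11 in rao2 (adjusted p = 0.014). With any 1 of the 6 arrays of the comparison left out, psbF kept its call. The wild type calls of psbE and psbK were each lost without 2 of the 6 arrays. In rao2 the calls of psbK and psbJ were lost without antimycin A replicate 1.

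psbN, which is needed for the assembly of photosystem II in tobacco and lies on the opposite strand within the psbB operon, went the other way. In rao2 its values were 10.64, 10.10 and 10.27 in water and 9.85, 9.97 and 9.33 under antimycin A. Those in wild type were 10.27, 10.30 and 10.42 against 10.08, 9.99 and 9.53, and those in anac017-1 were 10.08, 10.36 and 10.34 against 10.07, 9.68 and 9.80. All antimycin A values lay below all water values in the 3 genotypes, with changes of -0.62 ± 0.20 in rao2 (0.653-fold, adjusted p = 0.01551), -0.46 in wild type (adjusted p = 0.07) and -0.41 in anac017-1 (adjusted p = 0.11). Centring on the hybridisation controls gave calls in all 3, at -0.75, -0.60 and -0.55. The rao2 call was lost without antimycin A replicate 3 or water replicate 1, and the change ran from -0.74 to -0.42 over the 6 omissions. In anac017-2 the change was 0.05.

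**Figure D4:**
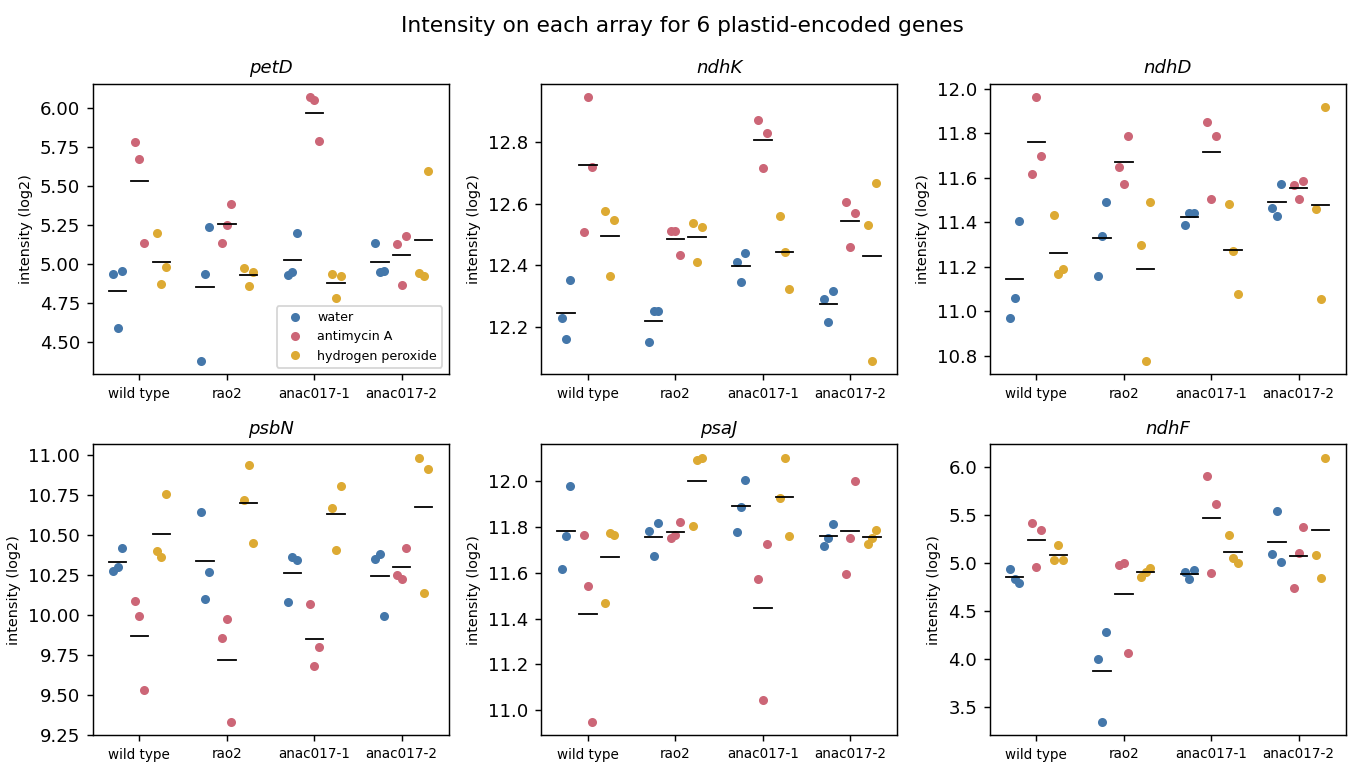
Log2 intensity of 6 genes on each array, by genotype and spray; points are arrays and bars are means of 3. Antimycin A arrays lie above water arrays for ndhK in all 4 genotypes, psbN lies below water in 3, and ndhF is low in rao2 water.

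The core proteins of photosystem II were not called. psbA, which encodes the rapidly replaced D1 protein, changed by 0.18, 0.11, 0.11 and 0.06 in the 4 genotypes, with a 95% interval reaching from -0.09 to 0.45 in wild type. psbD (D2) gave 0.04, -0.18 and 0.24, psbC (CP43) 0.02, -0.12 and 0.08, and psbB (CP47) -0.08, 0.04 and 0.20 in wild type, rao2 and anac017-1. psbI was apart from water in wild type and rao2 at 0.29 and 0.28 (adjusted p = 0.051 and 0.064). The small subunits psbH, psbL, psbM and psbT lay between -0.06 and 0.29.

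Of the 6 ATP synthase genes only atpA, for the alpha subunit of the catalytic head, was called, in rao2, where 14.12, 14.07 and 14.08 in water became 14.26, 14.27 and 14.35 under antimycin A (0.20 ± 0.08, adjusted p = 0.033). It was not called without any 1 of 4 of these 6 arrays. atpB and atpE, near the top of the scale, stayed within 0.07 in every genotype. atpF and atpH lay between -0.08 and 0.08, and atpI, a membrane subunit, gave 0.45, 0.30 and 0.50 with a standard error of 0.38.

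rbcL, for the large subunit of the carbon-fixing enzyme Rubisco, was one of the few genes with negative values in all 3 genotypes, at -0.30, -0.42 and -0.33 with a standard error of 0.22. Its values were 11.94, 11.89 and 12.37 in rao2 water and 11.69, 11.79 and 11.45 under antimycin A, which did not overlap. They were not called (lowest adjusted p = 0.12), except in rao2 when arrays were centred on the hybridisation controls (-0.55, adjusted p = 0.04049).

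The antimycin A values of anac017-2 lay around zero, with a median of 0.01 and with 22 of 42 members positive. Its difference of response from wild type was negative for 34 of 42 members, with a median of -0.14 (all probe sets 0.03). None of the 42 differences was called by limma (lowest adjusted p = 0.05759, 4 with an unadjusted p under 0.05), against 28.4% of all probe sets. petD differed by -0.66 ± 0.26 (adjusted p = 0.05957), psaB by -0.19 ± 0.07 and ndhD by -0.55 ± 0.24 (adjusted p = 0.09464). With the hydrogen peroxide group of anac017-2 left out of the fit, petD and ndhD were called (adjusted p = 0.03898 and 0.04617), both lower. That was 4.76% of members, where 29.5% of all probe sets were called and 11.6% called lower. Array weights gave 9 calls, all lower (21.4% of members), where 39.3% of all probe sets were called and 15.4% called lower. No member was called different from wild type in the antimycin A response of rao2 or anac017-1, where 1.3% and 2.98% of all probe sets were and 0 members had an unadjusted p under 0.05. The differences of hydrogen peroxide response gave no call in limma either and 0 members with an unadjusted p under 0.05, with backgrounds of 0.0132% in rao2, 0.0264% in anac017-1 and 0.0352% in anac017-2. The missing calls do not show equal responses, since the median standard error of a difference was 0.23.

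Genes that are read as 1 operon did not all move alike. All 4 genes of the psbE operon (psbE, psbF, psbL and psbJ) were positive under antimycin A in each genotype, with medians of 0.23, 0.13, 0.15 and 0.05. The ndhC, ndhK and ndhJ operon had medians of 0.28, 0.24 and 0.25 in wild type, rao2 and anac017-1. In the psbB operon petD gave 0.70 in wild type and 0.94 in anac017-1, where the next largest of the other 4 genes were 0.08 and 0.20. The petD probe set was dim and that of petB was near the top of the scale. In the petL operon petL and petG had positive values while psaJ, the gene after them, had negative ones in wild type and anac017-1. A probe set reads its own stretch of the shared RNA, and neighbours such as psbN and the genes on the opposite strand are read apart only if labelling and probes kept the strand.

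**Figure D5:**
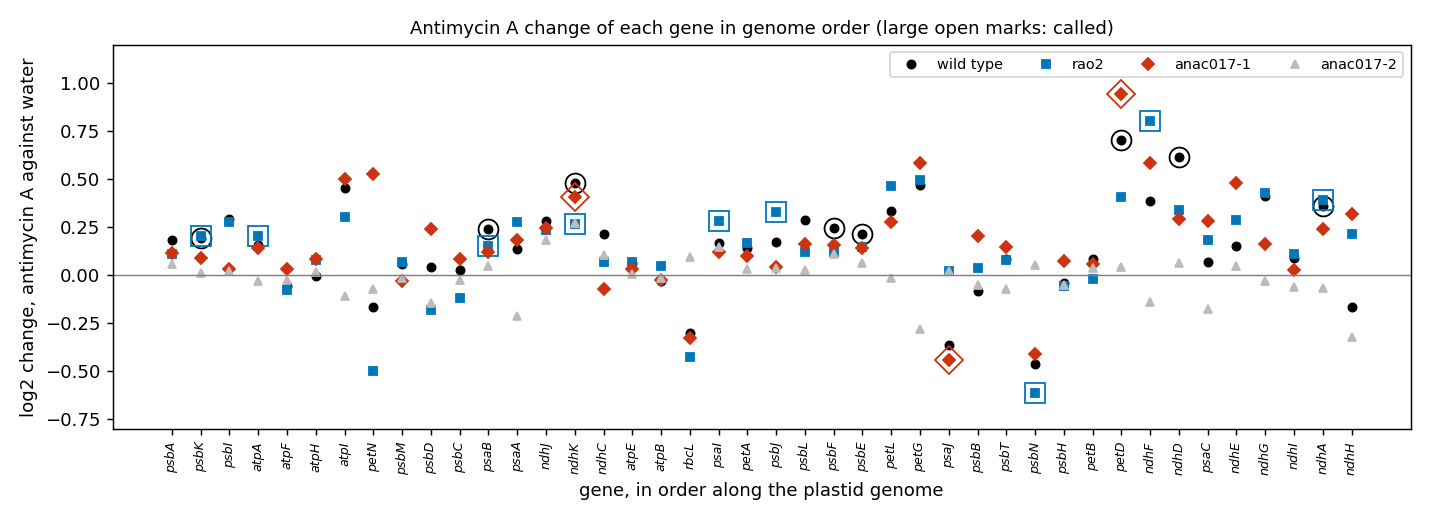
Log2 change under antimycin A against water for the 42 genes in their order along the plastid genome (RefSeq, TAIR10.1), in 4 genotypes; large open marks are called changes. Values of wild type, rao2 and anac017-1 lie near each other for most genes, petD stands above its neighbour petB, and psbN and psaJ lie below their neighbours.

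Hydrogen peroxide left the plastid-encoded genes with few calls. None of the 42 was called in wild type (background 14.8%, 4 members with unadjusted p under 0.05), anac017-1 (1.42%, 1 member) or anac017-2 (9.01%, 4 members), and 1 was in rao2 (2.38% of members, background 11.4%), the ndhF rise above. With the anac017-2 hydrogen peroxide group left out, the fit called 4 members in wild type and 4 in rao2 (9.52% of members each, against 15.9% and 12.3% of all probe sets in that fit). In wild type these were psaA and psaC lower (-0.43, adjusted p = 0.008983, and -0.42, adjusted p = 0.002439) and ndhJ and ndhK higher. psaA had 9.28, 9.20 and 9.49 on water arrays and 8.97, 8.73 and 8.98 under hydrogen peroxide, and psaC had 7.65, 7.76 and 7.88 against 7.30, 7.26 and 7.48. Neither pair of groups overlapped. In that comparison 3 of 42 members and 29.8% of all probe sets had all hydrogen peroxide arrays below all water arrays. In rao2, 9 members and 11.9% of all probe sets had all hydrogen peroxide arrays above all water arrays.

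psbN, which had lower values under antimycin A, had higher values under hydrogen peroxide in all 4 genotypes, at 0.17, 0.37, 0.37 and 0.43, none called. In anac017-2 the largest value was -1.32 ± 0.44 for ndhH (adjusted p = 0.05956), from 6.48, 6.17 and 6.54 in water to 5.70, 3.19 and 6.33. The 3.19 is replicate 2, the array on which all 42 members were low. Without replicate 1, 2 or 3 of that group the calls numbered 1 (ndhH lower), 2 (psbN and ndhK higher) and 3 (psaA, psaC and ndhH lower). The share of all probe sets called in these fits is not given here, so these counts are not set against a background.

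In water no member was called between a mutant and wild type in limma (backgrounds 0.132% for rao2, 5.43% for anac017-1 and 0.506% for anac017-2). Members with an unadjusted p under 0.05 numbered 2, 2 and 0. The largest value was that of ndhF in rao2, followed by petG at -0.89, petN at -0.66 and petL at -0.58, also in rao2. With the hydrogen peroxide group of anac017-2 left out, psbC was called lower in anac017-1 (-0.41, adjusted p = 0.01487), where 12.33, 12.41 and 12.72 in wild type stood against 11.98, 12.10 and 12.15.

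Within groups the members rose and fell together from array to array. Over the 36 arrays, deviations from group means had a median correlation of 0.48 over 861 pairs of members, 98.8% of them positive, and the first component held 50.7% of their variance. Without the hydrogen peroxide group of anac017-2 the values were 0.34, 92.6% and 37.4%. These correlations describe arrays that share sample, labelling and scale, and genes of an operon also share their RNA. psbB and psbC had the highest pairwise value at 0.93.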

How the data were processed

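The deposited values, 1 array for each of 36 leaf samples, are intensities on a linear scale that the authors had normalized across arrays. The submitters' processing notes name RMA and GCRMA, but the one used is not given in the sources used here. Such normalization brings arrays to 1 distribution, so a shift common to all transcripts would not be seen. The number of arrays limits the precision.

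After conversion to log2, 64 control probe sets out of 22810 were set aside, leaving 22746. A linear model with 12 group means was fitted by limma (version 3.58.1, R 4.3.3, with 24 residual and 1.28 prior degrees of freedom) on all arrays. It gave 17 comparisons, namely sprays against water within a genotype, mutants against wild type within water, and differences of response. A call needed an adjusted p (Benjamini-Hochberg, all probe sets) under 0.05. The ± beside a change is the standard error of the fit. The fit was tested on simulated data. The labels do not say whether replicates were separate cultures, so a p-value covers only the spread seen between the samples of a group. Replicate numbers did not pair the samples: deviations of same-numbered samples correlated with a median of 0.041, from -0.334 to 0.389.

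The members and gene lists were chosen with earlier results of these data known. Every member is named, and of other lists the 2 genes with the lowest p and the 2 of those left with the largest change in wild type under antimycin A. Gene names came from the platform's gene table, in which 13513 probe sets have 1 gene and 503 several. The ANAC017 transcript was not analysed here and could not serve to check the genotypes. The alternatives were 8 planned changes of processing and 2 added after seeing the data: centring each array on the mean of the members, and leaving out the hydrogen peroxide group of anac017-2.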

Additional observations from a re-analysis of the deposited data

Results flagged for a closer look

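The control probe set for 25S ribosomal RNA, which is not among the probe sets tested, was higher under a spray than in water, with all sprayed arrays above all water arrays, in 7 of 8 spray comparisons. Under antimycin A the difference in log2 was 1.77 in wild type, 1.88 in rao2, 1.83 in anac017-1 and 0.86 in anac017-2. Under hydrogen peroxide it was 0.41 in wild type, 0.49 in rao2 and 0.21 in anac017-1, and in anac017-2 it was 0.08 with overlapping arrays. The control for 5S ribosomal RNA overlapped between antimycin A and water in all 4 genotypes. Its group means lay between 2.61 and 2.79, close to the lower quartiles of the arrays (2.45 to 2.56). So dim a control could hardly show a change, and its overlap says little about 5S ribosomal RNA. The part of the 25S signal in the changes of the plastid-encoded genes was not tested.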

How the results depend on the processing

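The numbers below are members called of 42. Percentages in brackets are the share of all probe sets in the same fit that were called, in either direction. For antimycin A in wild type (8 called) centring on the hybridisation controls gave 5 (45.7%), array weights 18 (49.9%), and the 2 groups alone in the fit 4 (35.7%). For rao2 (9) centring on the hybridisation controls or on the mean of the members gave 3 each (42.9% and 36.3%). For anac017-1 (3) renewed quantile normalization gave 6 (45.5%), array weights 7 (47.3%), the 2 groups alone 5 (41.4%) and the replicate block 5 (45.6%). Leaving out the hydrogen peroxide group of anac017-2 gave 7 (46.1%). For anac017-2 (0) array weights and the 2 groups alone gave 3 each (28.3% and 18%), and leaving out that group 1 (16.5%). For hydrogen peroxide, wild type (0) had 4 with array weights (23.1%), 1 with the 2 groups alone (11.2%) and 1 with the replicate block (15.5%). It had 2 centred on the members (5.14%) and 4 without the group (15.9%). In rao2 (1) the counts were 2 with quantile normalization (11.6%), 4 with array weights (16.6%) and 0 with the 2 groups alone (3.24%). They were 2 with the replicate block (12.1%) and 4 without the group (12.3%). In anac017-1 (0) array weights gave 1 (8.42%). In anac017-2 (0) they gave 4 (12.8%), and the filter on dim probe sets, the replicate block and centring on the members gave 1 each (11.2%, 9.5% and 1.77%). In water, array weights gave 1 in anac017-1 (13.7%) and 1 in anac017-2 (8.31%), from 0 each, and leaving out the group gave 1 in anac017-1 (6.19%). For the difference of antimycin A response between anac017-2 and wild type (0) quantile normalization gave 2 (29.5%), the filter 1 (34.8%) and array weights 9 (39.3%). The groups alone gave 1 (27.6%), the replicate block 1 (29%) and leaving out the group 2 (29.5%). All of these were lower in anac017-2. Centring on the members gave 1 (21.8%), which was higher. The cause of these shifts was not tested.

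With 1 array left out in turn, antimycin A gave 5 to 12 calls in wild type, 5 to 7 in rao2, 2 to 6 in anac017-1 and 0 in anac017-2, and hydrogen peroxide gave 0 to 2 in rao2, 0 to 3 in anac017-2 and 0 in the others. The fewest in wild type came without antimycin A replicate 2 (5), and in rao2 without any of its antimycin A arrays (5 each). The most in anac017-1 came without antimycin A replicate 2 (6). The difference of antimycin A response of anac017-2 gave 0 to 3, with 3 without wild type water replicate 3. The mutants in water and the other 5 differences of response gave 0. These counts with 1 array left out are given without the share of all probe sets called in the same fits. Of the 21 member changes called, 20 kept their call with quantile normalization, 21 with the filter, 21 with a trended and robust prior, 20 with array weights, 12 with the groups alone and 21 with the replicate block. Replicate numbers do not pair the samples, and a lost call under the block says nothing of a weaker effect. No change reversed its direction under any alternative run. With 3 arrays a group, changes well under 0.5 in log2 could be called only for genes of small spread, and those near the top of the scale had little room to rise.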

Other observations

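Other plastid-encoded genes, for ribosomal proteins, RNA polymerase and other functions, were also measured. Of 36 listed 27 were measured. Under antimycin A 2 were called higher and 2 lower in wild type (median change 0.09), 9 higher and 1 lower in rao2 (0.21), 2 higher and 2 lower in anac017-1 (0.09) and none in anac017-2 (0.00). Of all probe sets 44%, 42.2%, 45.3% and 15.3% were called in either direction, and 17.2%, 16.4%, 17.7% and 6.9% were called higher. The 9 of 27 called higher in rao2 thus lay above the background. The 2 of 27 in wild type and in anac017-1 lay below it. The ribosomal protein gene rps16 fell in wild type (-0.76 ± 0.20, limma, adjusted p = 0.002739), rao2 (-0.61) and anac017-1 (-0.55). rps14 rose in the same 3 genotypes (0.50, 0.91 and 1.00), rps2 rose in wild type (0.40) and rao2 (0.63), and rpl33 fell in wild type (-0.39 ± 0.12). Hydrogen peroxide gave 6 calls, all higher, in rao2 (5.12% of all probe sets were called higher there) and 0 in the other genotypes in limma.

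Of 61 listed nuclear genes for photosynthetic subunits 11 were measured. Antimycin A lowered 3 in wild type, 4 in rao2 and 4 in anac017-1, with 0 higher, and raised 3 in anac017-2. Of all probe sets 26.7%, 25.8% and 27.7% were lower in those 3 genotypes and 6.9% higher in anac017-2, so the wild type count lay near the background. ATPC1, the gamma subunit of the chloroplast ATP synthase, fell by 0.51 ± 0.10 in wild type (adjusted p = 0.0001193) and had 0.28 in anac017-2, not called. PSBY, a small photosystem II subunit, changed by -0.19 ± 0.08 in wild type, and LHCB4.3, an antenna protein, by -0.66 ± 0.26. NDHL, a nuclear NDH subunit, had -0.45 in wild type, not called, and rose by 0.86 ± 0.24 in anac017-2. Hydrogen peroxide gave 1 call, higher, in anac017-2 and 0 in the others.

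Of nuclear genes for plastid RNA metabolism few were measured, at 2 of 14 for RNA processing and decay and 1 of 20 for transcription. The Arabidopsis counterpart of maize PPR10, an RNA-binding protein that protects plastid transcript ends in maize, fell in wild type under antimycin A (-2.16 ± 0.22, adjusted p = 7.651e-09), rao2 (-1.65) and anac017-1 (-1.64), and changed by -0.39 in anac017-2, not called. CRP1, known in maize for processing petB and petD RNA, fell in wild type (-0.62 ± 0.15), rao2 (-0.63) and anac017-1 (-0.58). RPOTMP, an RNA polymerase of mitochondria and plastids, fell in rao2 (-0.94) and anac017-1 (-0.85), and gave -0.25 in wild type, not called. The link between these genes and the plastid transcripts was not tested.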
